A study of Homo sapiens with 3 samples.

Results

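The genes described here encode nuclear-encoded subunits and assembly factors of the mitochondrial respiratory chain and of ATP synthase. They were taken by symbol from the platform annotation, from probe sets with a single gene symbol. The symbol began with NDUF, UQCR or ATP5, or with COX followed by 4, 5, 6, 7 or 8. The succinate dehydrogenase genes SDHA, SDHB, SDHC and SDHD and the cytochrome gene CYC1 were also sought, and pseudogenes were left out. The rule used no measured value. It gave 89 of the 19775 genes on the array, read by 172 of 54675 probe sets. Of these, 86 are protein-coding and 3 are non-coding RNA genes that carry a subunit's name. The protein-coding members comprise 33 subunits of complex I, 8 assembly factors of complex I with NDUFAF symbols, 3 subunits of complex II, 7 of complex III, 17 of complex IV and 17 of complex V, and 1 inhibitor of complex V. Each gene was represented by its brightest probe set, by mean log2 signal over the arrays. Genes read only by probe sets of several symbols, among them NDUFS8, NDUFS5, NDUFC2 and UQCRH, were not analysed here. SDHB, UQCRFS1, NDUFA4 and NDUFA4L2 also had no probe set with a single symbol in the annotation used, so they are not among the members.

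The study hybridised 3 Affymetrix expression arrays, 1 for each group of an established colorectal cancer cell line. Cells of the LATS2 group received full-length LATS2, a kinase that acts in Hippo signalling, by virus. Those of the LATS2N group received a viral construct of its residues 1 to 625, and those of the EV group a virus with no insert. The sample labels name the line SW620 and describe overexpression, whereas the series' design text names SW480 and describes stable expression, so the identity of the line is not settled here. All groups were grown in DMEM with 10% serum and 5% CO2, and nothing in the labels says how many clones or cultures stand behind an array. With 1 array per group there is no replicate, no test and no error between cultures for any difference, and the values below describe these arrays.

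The respiratory chain passes electrons from NADH, through complex I, and from succinate, through complex II, by way of ubiquinone to complex III, cytochrome c and complex IV, which reduces oxygen. Complexes I, III and IV pump protons across the inner mitochondrial membrane, and complex V (ATP synthase) uses the returning protons to make ATP. Most subunits are encoded in the nucleus and are assembled with subunits encoded in mitochondrial DNA, and many of the nuclear genes are known to have promoters bound by nuclear respiratory factor 1 (NRF1) and by GABPA, a factor of the ETS family. Colonocytes are known to rely on oxidative metabolism of short-chain fatty acids.

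Promoters of 6 members are shown with the letters of these factors' motifs. NDUFS7 and NDUFA1 were among the highest ratios for LATS2, and NDUFS1 had the lowest. SDHA, SDHD and COX5B are shown for their matches, so the 6 do not represent how often members carry the motifs. The sequences are the 250 bases before the annotated start, from RefSeq on GRCh38.p14, written 5′ to 3′ on the gene's strand. Capitals mark exact matches on either strand to the NRF1 motif (GCGCA, any base, then GCGC) or the ETS motif CCGGAAG, which reads CTTCCGG on the opposite strand. NDUFS7 lies at chr19:1383657-1383906 on the plus strand, NDUFA1 at chrX:119871582-119871831 on the plus strand and NDUFS1 at chr2:206159445-206159694 on the minus strand, as the first of 2 windows listed. SDHA lies at chr5:218070-218319, SDHD at chr11:112086623-112086872 and COX5B at chr2:97645812-97646061, all on the plus strand.
NDUFS7: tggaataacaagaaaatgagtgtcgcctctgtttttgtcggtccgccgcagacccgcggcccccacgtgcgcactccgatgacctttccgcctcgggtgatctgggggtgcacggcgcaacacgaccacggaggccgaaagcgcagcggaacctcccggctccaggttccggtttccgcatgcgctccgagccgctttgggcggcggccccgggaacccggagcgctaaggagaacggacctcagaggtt
NDUFA1: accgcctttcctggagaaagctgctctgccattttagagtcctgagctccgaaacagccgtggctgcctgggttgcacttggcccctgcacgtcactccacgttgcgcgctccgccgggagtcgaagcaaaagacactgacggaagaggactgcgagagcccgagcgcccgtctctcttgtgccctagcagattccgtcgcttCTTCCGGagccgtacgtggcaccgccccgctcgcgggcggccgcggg
NDUFS1: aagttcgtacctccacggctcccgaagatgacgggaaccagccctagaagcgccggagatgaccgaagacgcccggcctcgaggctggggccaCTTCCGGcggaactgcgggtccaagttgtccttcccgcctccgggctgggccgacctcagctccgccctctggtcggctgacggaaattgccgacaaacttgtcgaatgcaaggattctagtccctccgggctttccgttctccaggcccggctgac
SDHA: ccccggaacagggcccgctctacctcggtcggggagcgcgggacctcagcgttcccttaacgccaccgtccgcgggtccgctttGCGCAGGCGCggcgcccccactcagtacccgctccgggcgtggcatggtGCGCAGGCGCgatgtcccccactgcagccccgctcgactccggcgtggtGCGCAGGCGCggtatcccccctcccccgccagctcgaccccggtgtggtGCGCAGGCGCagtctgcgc
SDHD: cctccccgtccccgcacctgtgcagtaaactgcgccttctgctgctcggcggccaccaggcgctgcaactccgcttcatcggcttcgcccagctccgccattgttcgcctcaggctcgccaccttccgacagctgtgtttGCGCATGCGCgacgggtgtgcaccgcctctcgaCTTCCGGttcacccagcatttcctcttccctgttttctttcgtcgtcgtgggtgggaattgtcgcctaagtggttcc
COX5B: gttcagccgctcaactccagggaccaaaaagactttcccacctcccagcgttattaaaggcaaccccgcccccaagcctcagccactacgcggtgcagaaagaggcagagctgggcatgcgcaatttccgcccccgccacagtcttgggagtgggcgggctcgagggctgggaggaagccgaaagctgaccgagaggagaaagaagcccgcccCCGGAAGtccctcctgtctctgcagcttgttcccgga

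The SDHA window held 4 matches to the NRF1 motif, with 9 bases between the last match and the start. SDHD held 1 NRF1 match, ending 100 bases before the start, and 1 ETS match, ending 70 bases before it. The single ETS matches of NDUFA1, NDUFS1 and COX5B ended 40, 150 and 30 bases before the start, and the NDUFS7 window held a match to neither motif. RefSeq windows were at hand for 73 of the 86 protein-coding members, 91 windows in all. In the 250 bases before the start, 15.4% of the members' windows held the NRF1 motif, beside 6.56% of the 22199 windows of protein-coding genes. For the ETS motif the shares were 20.9% of the members' windows and 10.7% of all windows. The hypoxia response letters ACGTG or GCGTG, searched on both strands, occurred in 53.8% of the members' windows and 49.3% of all windows. Where the open base of the NRF1 motif is C, the motif contains GCGTG on the other strand, so these matches can overlap. A match describes letters in a window and not binding.

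Most members were among the brightest genes on the arrays. Their median signal, in scaled intensity units, was 8511 on the LATS2 array, 8725 on the LATS2N array and 7853 on the EV array, where the median probe set read 49.4, 51.0 and 51.1. A floor was set at 50.5, the median of all signals, and lower signals were raised to it before ratios were taken. By this measure 84 of the 89 members lay above the floor on every array, 79 read at least 500 and 61 at least 5000. The median member ranked at percentile 96.3 of all genes by mean log2 signal. The 3 brightest were ATP5MK, a small membrane subunit of ATP synthase with 27467, 26579 and 26168 on the LATS2, LATS2N and EV arrays, ATP5PB, the b subunit of its peripheral stalk with 26614, 27435 and 24846, and NDUFAB1, the mitochondrial acyl carrier protein with 25101, 26690 and 24756. The 4 members at or below the floor on all arrays were COX7A1, COX7B2 and COX8C, described with complex IV, and ATP5MF, whose only single-symbol probe set read 17.7, 21.5 and 19.3. A further probe set that carries ATP5MF beside another symbol was left out. Signals of different probe sets are not levels per transcript and are not ranked against each other beyond this.

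Of 10 markers of colorectal epithelium, 7 lay above the floor on all arrays, with summed signals of 106752 for LATS2, 106350 for LATS2N and 99498 for EV. KRT18, KRT8 and EPCAM made up most of these sums. CDH1, the epithelial cadherin, read 2792, 3567 and 4421 on the LATS2, LATS2N and EV arrays, log2 ratios against EV of -0.66 in LATS2 cells and -0.31 in LATS2N cells. VIL1, which encodes villin, read 3948, 4666 and 5013. CDX1, LGALS4 and CEACAM5 were under the floor on at least 1 array. Of the 11 markers of leukocytes, fibroblasts, endothelium and hepatocytes with a probe set, 7 were below the floor on all arrays and the summed signals were 1078, 1145 and 1046. Within these sums COL1A1, a fibroblast collagen, read 596, 607 and 325 and ALB, a hepatocyte protein, 255, 231 and 351 on the LATS2, LATS2N and EV arrays. PECAM1, of endothelium, had log2 ratios against EV of -0.74 in LATS2 cells and -0.64 in LATS2N cells. The part of these markers in the results was not tested. LATS2 itself read 377, 409 and 385 at the brightest of its 4 probe sets on the LATS2, LATS2N and EV arrays, and 219, 219 and 206 at the next. The other 2 were under the floor on all arrays. Which of them lie within the cloned sequence is not known here, so they do not check the labels. The 3 probe sets for 18S ribosomal RNA had a median log2 ratio of -1.31 for LATS2 against EV and -0.70 for LATS2N against EV, and their part in the results was not tested. A signal is relative to the scaled total of its array, and fewer cells expressing a gene cannot be told apart from less of its RNA per cell.

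The only error that can be had within these arrays is the spread between probe sets of the same gene. For genes above 2000 on the dimmer array, this spread in log2 ratio, as a robust SD, was 0.11 for LATS2 against EV, 0.09 for LATS2N against EV and 0.10 for LATS2 against LATS2N. Between 500 and 2000 it was 0.18, 0.15 and 0.15, and between the floor and 100 it was 0.44, 0.48 and 0.51. These values are called the probe set spread below, and they leave out differences between cultures.

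For full-length LATS2 against the empty vector, most members had slightly higher signals in LATS2 cells. The question is which genes full-length LATS2 regulates in these cells. Of 84 members measured, 67 had a log2 ratio above 0 and 17 below 0, with a median of 0.09 and a range from -0.29 to 0.40. Over the 13186 genes measured, 54.8% lay above 0 and 45.2% below, and the median was 0.03. No member differed by 2-fold, where 0.963% of all genes were at least 2-fold higher and 0.842% at least 2-fold lower. At a smaller size, a log2 ratio of at least 0.32 in either direction, 2 members were higher and 0 lower, beside 16.6% and 12.8% of all genes and 10.7% and 6.85% of genes reading at least 500. The 2 higher members were NDUFS7 and COX6B2, and both read under 5000. COX6B2 was dim, at 91.5 on the LATS2 array and 70.9 on the EV array, and its ratio of 0.37 was within its probe set spread of 0.44. At 5000 or more on the brighter array of the pair, 0 of 65 members reached this size in either direction. Of other genes as bright, 2.76% did so upwards and 3.24% downwards.

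Bright genes were compared with bright genes, at a level of 5000 chosen after the data were seen. Here and in the comparisons below, a gene counted as this bright if the brighter array of the pair read at least 5000. Of 65 members at that level, 53 lay above 0 with a median of 0.08, and 22 of them (33.8%) exceeded 1 probe set spread upwards and 1 (1.54%) downwards. Among 1449 other genes as bright, 56.1% lay above 0 and 43.9% below, the median was 0.02, and 25.1% and 20.3% exceeded the spread upwards and downwards. Beyond 2 probe set spreads, 9 of the 84 members were higher (NDUFA1, NDUFB1, NDUFB6, NDUFB5, NDUFA3, NDUFA7, NDUFA10, NDUFS7 and SDHD) and 2 lower (NDUFS1 and NDUFAF6), that is 10.7% and 2.38%, beside 8.48% and 5.88% of the 13102 other genes measured. Among genes of at least 5000, 7 of 65 members (10.8%) lay above 2 spreads and 0 below, beside 7.45% and 7.94% of the others. Of these 7, NDUFA7 and SDHD read 4804 and 4712 on the EV array, so they reached 5000 only through the LATS2 array. Of those 9, 8 are subunits of complex I, which gave 33 of the 84 members. When a lowess curve of the ratio against signal was subtracted, 62 of the 84 members were above 0 with a median of 0.05, and after quantile normalisation 61 were, also with a median of 0.05.

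For the fragment, LATS2N against the empty vector, nearly all members had higher signals in LATS2N cells. Of 85 members measured, 80 had a log2 ratio above 0 and 5 below 0, with a median of 0.15 and a range from -0.16 to 1.08. Over 13245 genes measured the median was 0.02, and 53.6% lay above 0 and 46.4% below. The 5 members below 0 were NDUFAF1, ATP5F1D, SDHC, NDUFAF2 and NDUFB2. At 2-fold, 1 member was higher and 0 lower, beside 0.944% and 0.566% of all genes, and the 1 was the non-coding RNA gene NDUFV1-DT. At a log2 ratio of at least 0.32, 5 members were higher and 0 lower (COX7A2, NDUFA5, COX4I2, NDUFV1-DT and NDUFV2-AS1), beside 13.6% and 10.4% of all genes and 6.17% and 5.34% of genes reading at least 500. The count of 5 was 3 without the non-coding RNA genes and 2 among members reading at least 500. NDUFV2-AS1 exceeded the floor only on the LATS2N array, so its ratio could only lie above 0.

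Bright genes as a class also read higher in LATS2N cells than in EV cells. Of 67 members reading at least 5000, 65 lay above 0 with a median of 0.15, and of 1419 other genes 66.9% lay above 0 and 33.1% below, with a median of 0.05. In the same bright genes, 51 members (76.1%) exceeded 1 probe set spread upwards and 1 (1.49%) downwards, beside 39.2% and 15.2% of the other genes. Over all 85 members, 26 (30.6%) lay above 2 probe set spreads and 0 below, beside 7.8% and 6.01% of 13160 other genes. In genes of at least 5000 it was 24 of 67 members (35.8%) above and 0 below, beside 14.3% and 4.79% of the others. Among the 24, NDUFA7, SDHD and NDUFA5 read 4804, 4712 and 4267 on the EV array and reached 5000 only through the LATS2N array. NDUFB7, among the 51 beyond 1 spread, read 4607 on the EV array and did so too. With the curve subtracted, 72 of 85 members were above 0 with a median of 0.08, and with quantile normalisation 73 were, with a median of 0.09. The other bright genes then lay above 0 in 48.6% and 51.0% of cases.

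**Figure D1:**
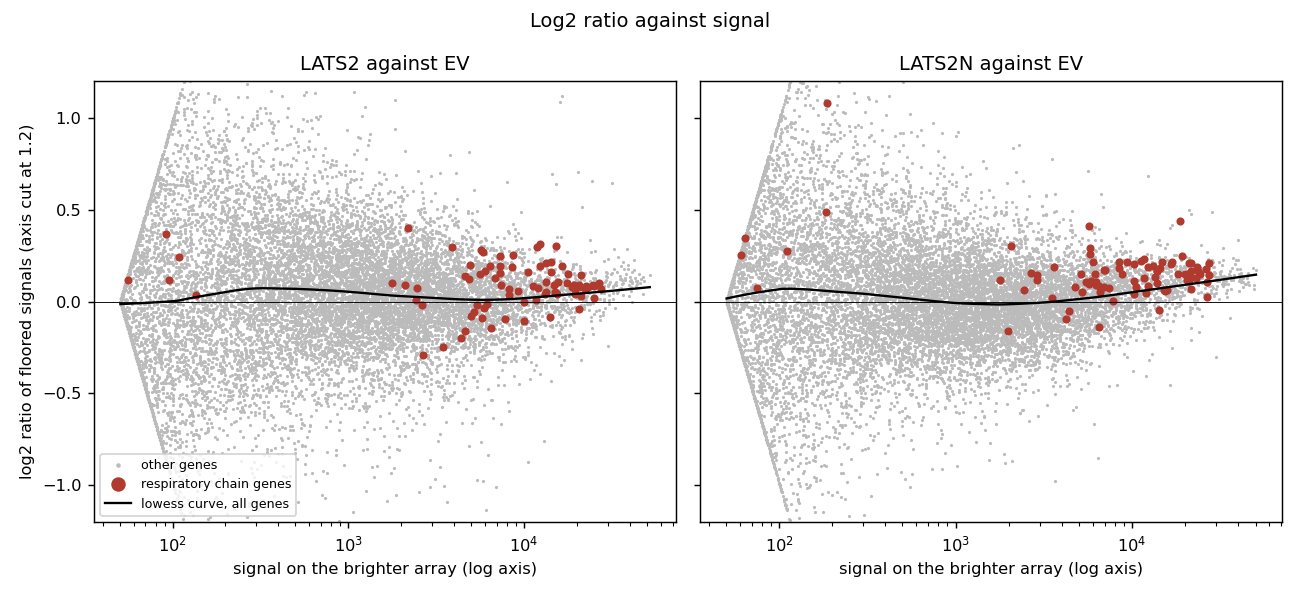
Log2 ratio of floored signals (y axis) against the signal on the brighter array (log x axis) for LATS2 against EV and LATS2N against EV; red points are respiratory chain genes, grey points other genes and the line a lowess curve of all genes. Most red points lie at the bright end and above 0, where the curve itself turns upward, more so for LATS2N, and the members' medians are 0.09 and 0.15.

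LATS2 against EV and LATS2N against EV share the EV array, so a value peculiar to that array enters both. The comparison of LATS2 against LATS2N does not use it. There, 26 of 85 members lay above 0 and 59 below, with a median log2 ratio of -0.05 and a range from -0.97 to 0.29, beside 52.3% of all genes above 0 and 47.7% below. Among bright genes, 19 of 67 members lay above 0 and 48 below, beside 41.2% and 58.8% of 1444 others, and 32.8% of the members and 31% of the others exceeded 1 spread downwards, and 4.48% and 17.1% upwards. At 2-fold 0 members were higher and 0 lower, beside 0.592% and 1% of all genes. At a log2 ratio of 0.32, 0 were higher and 5 lower (COX7A2, COX4I2, NDUFS1, NDUFV1-DT and NDUFV2-AS1), beside 13.9% and 13.2% of all genes. NDUFV2-AS1 exceeded the floor only on the LATS2N array, so its ratio could only fall below 0 here. The next probe set of NDUFS1 gave 0.12. With the curve subtracted, 50 of 85 members were below 0, with a median of -0.02, and 51.2% of the other bright genes lay above 0.

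**Figure D2:**
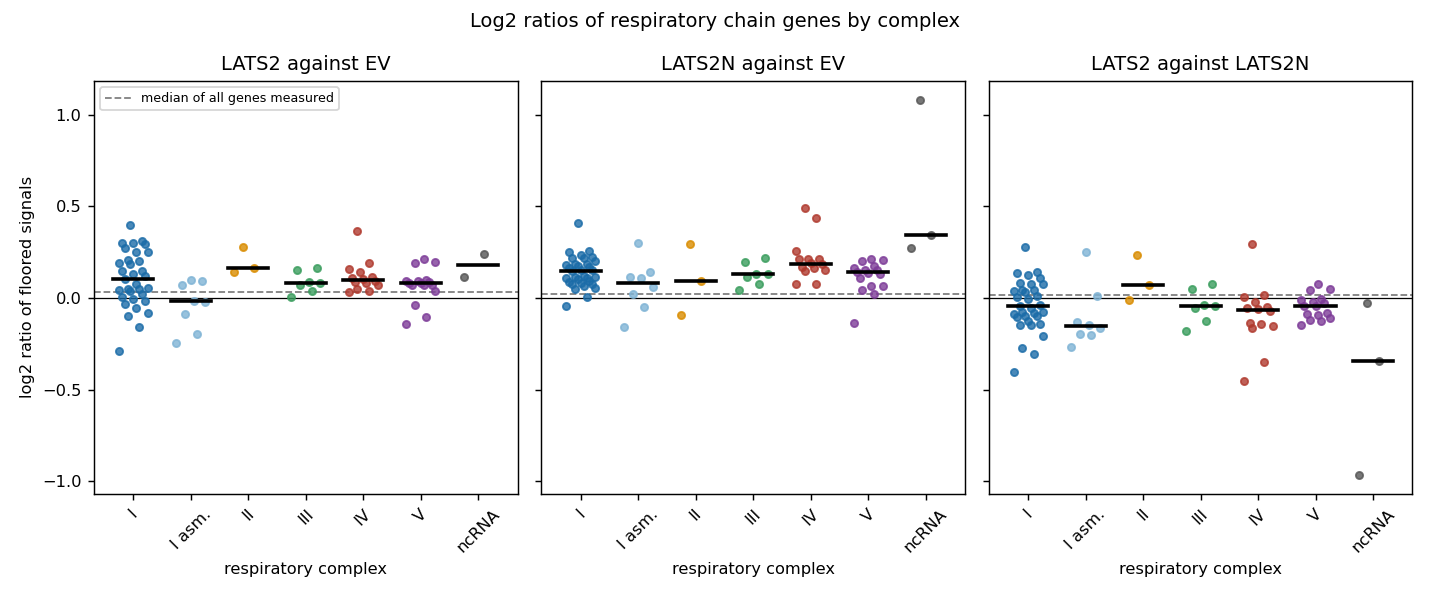
Log2 ratios of floored signals (y axis) by respiratory complex (x axis) in the 3 comparisons; each point is a gene, black bars are medians and the dashed line is the median of all genes measured. Complexes III and IV lie entirely above 0 in LATS2 against EV and LATS2N against EV, where 54.8% and 53.6% of all genes do. The complex I assembly factors have the lowest median for LATS2 against EV, -0.02.

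Complex I, which oxidises NADH, had a median log2 ratio of 0.11 for LATS2 against EV with 25 of 33 subunits above 0, and 0.15 for LATS2N against EV with 32 of 33 above 0. For LATS2 against LATS2N the median was -0.04, with 14 of 33 above 0. Of all genes measured, 54.8%, 53.6% and 52.3% lay above 0 in these 3 comparisons. The accessory subunits of the NDUFA symbols had medians of 0.15 (12 of 13 above 0) for LATS2 and 0.17 (13 of 13) for LATS2N, both against EV. Those of the NDUFB symbols, which sit in the membrane arm, had medians of 0.12 (8 of 11) and 0.15 (10 of 11). The NDUFS subunits, which include the iron-sulfur proteins of the matrix arm, had medians of 0.01 (3 of 5) and 0.12 (5 of 5), and the NDUFV subunits of the NADH-binding module 0.00 (1 of 3) and 0.08 (3 of 3). Groups of 3 to 5 genes give medians that a single gene can move.

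NDUFS7, an iron-sulfur core subunit beside the ubiquinone site, read 2177 on the LATS2 array, 1793 on the LATS2N array and 1652 on the EV array. Its signal was highest in LATS2 cells, with a log2 ratio of 0.40 against EV and 0.28 against LATS2N, and its second probe set, dim and under the floor on the EV array, had 0.32 for LATS2 against LATS2N. For LATS2N against EV the ratio was 0.12, less than 1 probe set spread. NDUFB1, a small membrane-arm subunit, read 12278, 11619 and 9886, with log2 ratios against EV of 0.31 in LATS2 and 0.23 in LATS2N cells. NDUFA1, an X-linked membrane-arm subunit needed for assembly, read 15157, 13809 and 12310, with log2 ratios of 0.30 and 0.17. NDUFB6, another membrane-arm subunit, read 11910, 11303 and 9688, with log2 ratios of 0.30 and 0.22. In these 4 genes the EV array was the lowest and the LATS2 array the highest.

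NDUFA5, an accessory subunit of the matrix arm, showed the other order. It read 4907 on the LATS2 array, 5671 on the LATS2N array and 4267 on the EV array, giving log2 ratios against EV of 0.20 in LATS2 cells and 0.41 in LATS2N cells. NDUFA9, an accessory subunit near the junction of the arms, read 13109, 14455 and 12724, with log2 ratios of 0.04 and 0.18. NDUFV1, the subunit that binds NADH and the flavin cofactor, read 7290, 6609 and 6385, with log2 ratios of 0.19 and 0.05 against EV and 0.14 for LATS2 against LATS2N. NDUFS3, a core subunit of the matrix arm, read 7255, 7779 and 7757, with log2 ratios of -0.10 and 0.00.

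More accessory subunits of complex I lay beyond 2 probe set spreads for LATS2 against EV. NDUFA7, of the matrix arm, read 5803 on the LATS2 array, 5748 on the LATS2N array and 4804 on the EV array, with log2 ratios of 0.27 in LATS2 cells and 0.26 in LATS2N cells. NDUFB5, of the membrane arm, read 8674, 8471 and 7285, with log2 ratios of 0.25 and 0.22. NDUFA3, another membrane-arm subunit, read 7316, 6926 and 6153, with log2 ratios of 0.25 and 0.17. In all of these the EV array was the lowest of the 3. NDUFA10, which has the fold of a nucleoside kinase, read 3881, 3602 and 3164, with log2 ratios of 0.29 and 0.19. Its other probe sets were dim and differed in sign. One of them, at 86.5, 151.1 and 52.6, gave 0.72 and 1.52, and another, at 78.5, 86.1 and 92.6, gave -0.24 and -0.11. NDUFB4, of the membrane arm, read 17800, 19071 and 16048, with log2 ratios of 0.15 and 0.25. NDUFV3, an accessory subunit of the NADH-binding module, read 4994, 6037 and 5194, so that the LATS2N array stood highest, with log2 ratios against EV of -0.06 in LATS2 cells and 0.22 in LATS2N cells. NDUFV2, an iron-sulfur protein of the same module, read 9923, 10503 and 9956, with log2 ratios of 0.00 and 0.08. NDUFS4 and NDUFS6, accessory subunits of the matrix arm, had log2 ratios of 0.01 and 0.04 for LATS2 and 0.15 and 0.12 for LATS2N against EV.

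Several complex I subunits were lower in LATS2 cells than in EV cells. NDUFS1, the largest iron-sulfur subunit and part of the electron input module, read 2171 on the LATS2 array, 2877 on the LATS2N array and 2652 on the EV array at its brightest probe set, with log2 ratios against EV of -0.29 in LATS2 cells and 0.12 in LATS2N cells. Its next probe set, at 652, 598 and 638, gave 0.03 and -0.09, so the direction depended on the probe set. NDUFB7, a membrane-arm subunit on the intermembrane side, read 4123, 5104 and 4607, with log2 ratios of -0.16 and 0.15 against EV and -0.31 for LATS2 against LATS2N. A dim second probe set had 0.24 for LATS2 against LATS2N. NDUFB2, another membrane-arm subunit, read 13320, 13673 and 14115, and was the complex I subunit below 0 in LATS2N against EV, at -0.05.

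**Figure D3:**
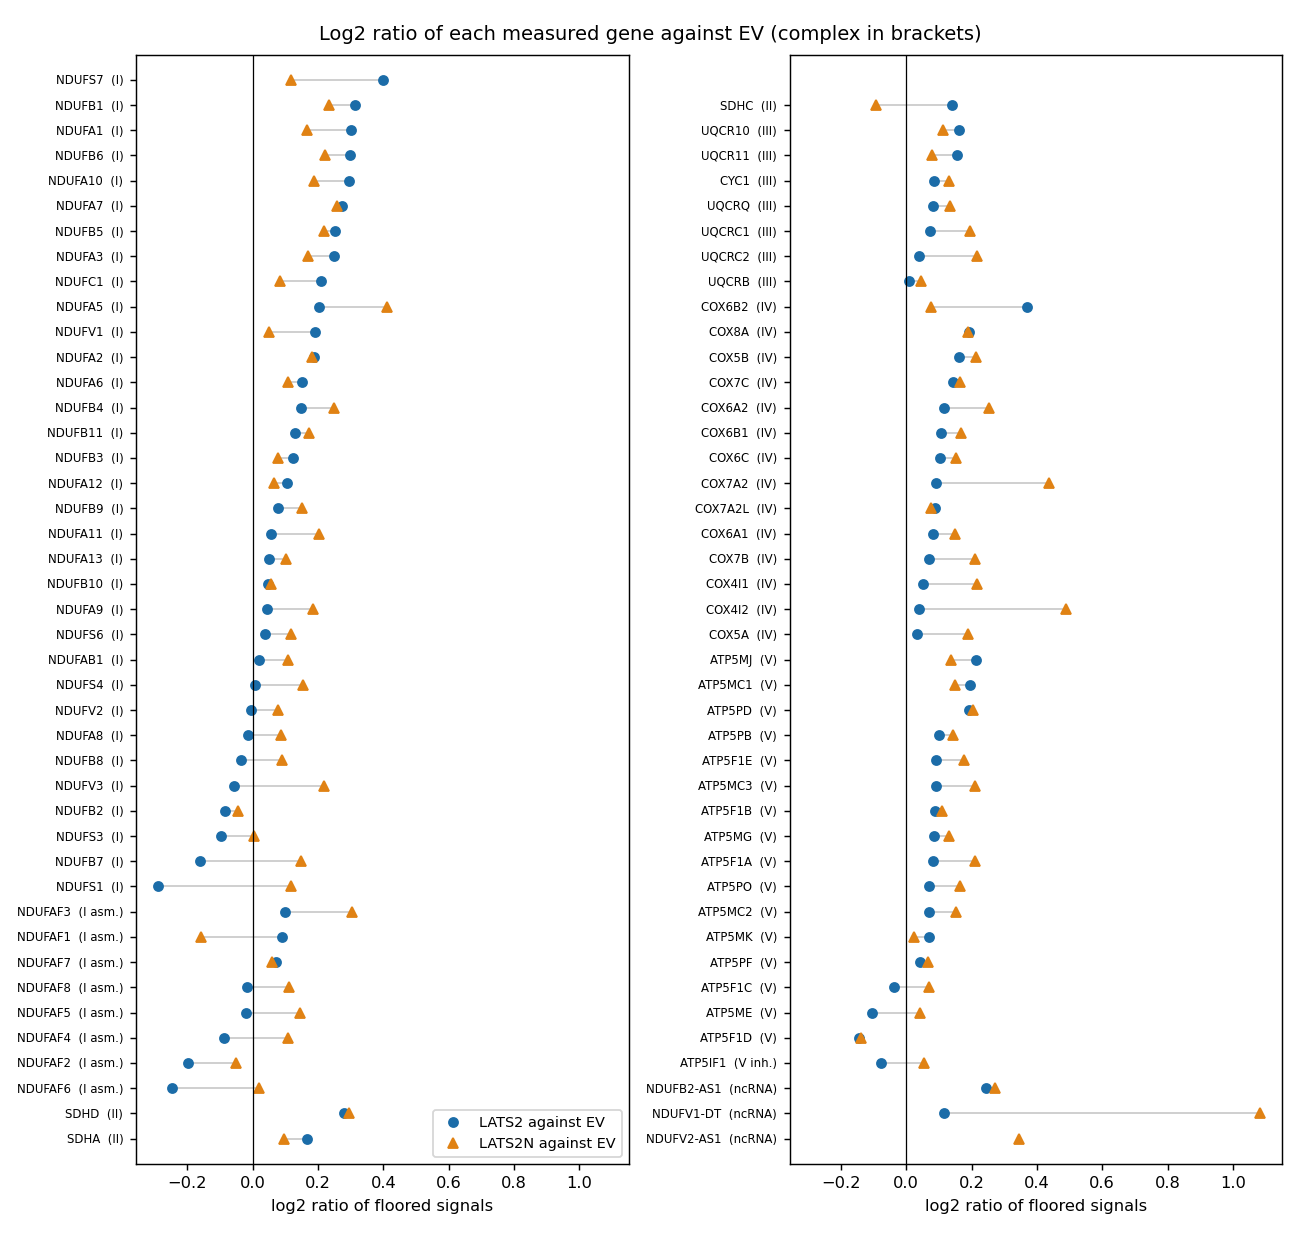
Log2 ratio of floored signals (x axis) for each measured gene, with LATS2 against EV as circles and LATS2N against EV as triangles; genes are grouped by complex and ordered by the LATS2 value. NDUFS7 heads the list at 0.40 for LATS2, NDUFV1-DT stands alone at 1.08 for LATS2N, and COX7A2 and NDUFA5 have triangles well to the right of their circles.

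The complex I assembly factors with NDUFAF symbols build the enzyme without being part of it. Their median log2 ratio was -0.02 for LATS2 against EV with 3 of 8 above 0, 0.08 for LATS2N against EV with 6 of 8 above 0, and -0.16 for LATS2 against LATS2N with 2 of 8 above 0. For LATS2 against EV the count of 3 of 8 was the same with quantile normalisation, with centring on the median of all genes and with the curve subtracted. NDUFAF6, which acts early in assembly of the matrix arm, read 2932 on the LATS2 array, 3526 on the LATS2N array and 3477 on the EV array, with a log2 ratio of -0.25 for LATS2 against EV. NDUFAF2, a paralogue of NDUFA12 found on late assembly intermediates, read 3810, 4217 and 4367, with log2 ratios of -0.20 and -0.05 against EV. NDUFAF3, which helps build the ubiquinone module, read 1784, 2054 and 1665, with log2 ratios of 0.10 and 0.30. NDUFAF1, an assembly factor of the membrane arm, read 2114, 1779 and 1986, with log2 ratios of 0.09 and -0.16 against EV and 0.25 for LATS2 against LATS2N. NDUFAF4, a partner of NDUFAF3, read 5437, 6226 and 5778, with log2 ratios of -0.09 and 0.11.

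Complex II, succinate dehydrogenase, links the tricarboxylic acid cycle to the chain. SDHD, a membrane anchor that helps bind ubiquinone, read 5725 on the LATS2 array, 5775 on the LATS2N array and 4712 on the EV array, with log2 ratios against EV of 0.28 in LATS2 cells and 0.29 in LATS2N cells. Both constructs thus stood more than 2 probe set spreads above the EV array, while they differed from each other by -0.01. The same EV value enters both ratios, and the other SDHD probe set was under the floor on all arrays. SDHA, the flavoprotein that oxidises succinate, read 5991, 5705 and 5342, with log2 ratios of 0.17 and 0.09. SDHC, the other anchor, read 4640, 3947 and 4209, with log2 ratios of 0.14 and -0.09 against EV and 0.23 for LATS2 against LATS2N. SDHC had 7 probe sets, and the 3 brightest after the first gave 0.09, 0.01 and 0.15 for LATS2 against EV and 0.11, 0.20 and 0.12 for LATS2 against LATS2N.

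Complex III, ubiquinol-cytochrome c reductase, lay above 0 in 7 of 7 subunits for both LATS2 and LATS2N against EV, at medians of 0.08 and 0.13 on the log2 scale. With the curve subtracted 6 of 7 did in each. Before that subtraction, 54.8% and 53.6% of all genes measured lay above 0, and 56.1% and 66.9% of other genes of at least 5000. CYC1, the haem protein that hands electrons to cytochrome c, read 11306 on the LATS2 array, 11652 on the LATS2N array and 10654 on the EV array, with log2 ratios of 0.09 and 0.13. UQCRC1, a core subunit on the matrix side, read 11986, 13053 and 11403, with log2 ratios of 0.07 and 0.19. UQCRC2, its partner, read 8244, 9332 and 8032 at its brightest probe set, with 0.04 and 0.22. A second probe set of UQCRC2, at 5958, 6923 and 4708, gave 0.34 and 0.56, the same direction at a larger size. UQCRB, a small subunit near the ubiquinone site, had probe sets of nearly equal signal with 0.01 and 0.21 for LATS2 against EV, a difference larger than the probe set spread.

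Complex IV, cytochrome c oxidase, lay above 0 in 14 of 14 measured subunits for both LATS2 and LATS2N against EV, which share the EV array. Beside this, 54.8% and 53.6% of all genes measured lay above 0, and 56.1% and 66.9% of other genes of at least 5000. COX4I2, COX6A2 and COX6B2, among the 14, were dim and had LATS2 ratios within the probe set spread. The medians of complex IV were 0.10 for LATS2 and 0.19 for LATS2N. With the curve subtracted, 13 of 14 and 14 of 14 were above 0, at medians of 0.07 and 0.11. COX7A2, the widely expressed form of a small subunit, read 14757 on the LATS2 array, 18773 on the LATS2N array and 13854 on the EV array. The LATS2N array stood apart, with log2 ratios of 0.44 for LATS2N against EV and -0.35 for LATS2 against LATS2N, and 0.09 for LATS2 against EV. COX4I1, the regulatory subunit that binds nucleotides, read 15081, 16899 and 14552 with log2 ratios of 0.05 and 0.22, and its second bright probe set gave -0.07 and 0.08. COX5A, a matrix-side subunit, read 20997, 23371 and 20523, with log2 ratios of 0.03 and 0.19, whereas its dimmer second probe set gave -0.77 and -0.15. COX5B, a zinc-binding subunit whose promoter is shown above, read 14265, 14804 and 12766, with log2 ratios of 0.16 and 0.21. The small subunits COX8A, COX7C and COX7B had log2 ratios of 0.19, 0.14 and 0.07 for LATS2 and 0.19, 0.17 and 0.21 for LATS2N against EV. A second probe set of COX7C, about as bright, gave -0.05 for LATS2 and 0.15 for LATS2N. COX6A1, COX6B1, COX6C and COX7A2L lay between 0.08 and 0.11 for LATS2 and between 0.07 and 0.17 for LATS2N.

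Cytochrome c oxidase has paralogous subunits that are known from other tissues, and the arrays separated the bright forms from the dim ones. COX6A1, COX6B1, COX7A2L, COX7B and COX8A all read above 6990 on every array. COX7A1 and COX6A2 are the heart and muscle forms, COX4I2 is known from lung and from low oxygen, and COX6B2, COX7B2 and COX8C are known from testis. COX4I2 read 135.4 on the LATS2 array, 185.1 on the LATS2N array and 131.9 on the EV array. Its log2 ratio was 0.49 for LATS2N against EV, where the probe set spread was 0.35, and 0.04 for LATS2 against EV. COX6B2 read 91.5, 74.7 and 70.9, with a log2 ratio of 0.37 for LATS2 against EV where the spread was 0.44. COX6A2 stayed near the floor at 55.5, 61.0 and 51.2. COX7A1 read 7.56, 4.51 and 8.15, COX7B2 24.7, 26.8 and 15.4, and COX8C 1.36, 5.25 and 11.8, all under the floor and so without a ratio.

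**Figure D4:**
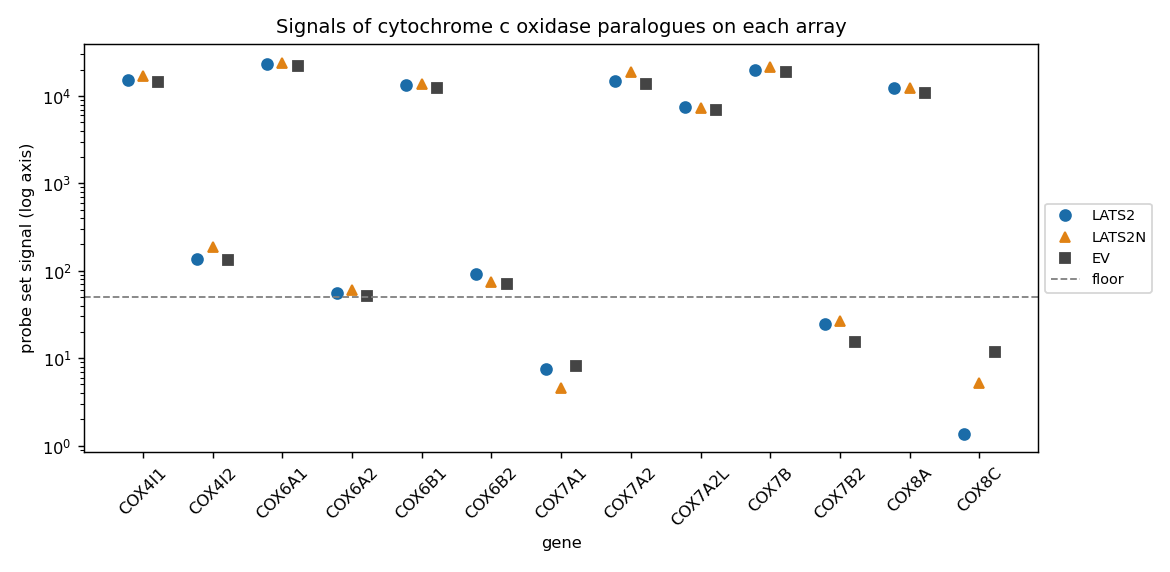
Probe set signals (log y axis) of cytochrome c oxidase paralogues (x axis) on the LATS2, LATS2N and EV arrays, with 1 point per array and the floor of 50.5 as a dashed line. COX4I1, COX6A1, COX6B1, COX7A2, COX7A2L, COX7B and COX8A lie above 6990 on every array, COX4I2, COX6A2 and COX6B2 between the floor and 185.1, and COX7A1, COX7B2 and COX8C below the floor.

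Complex V had median log2 ratios of 0.08 for LATS2 against EV with 13 of 16 subunits above 0, and 0.14 for LATS2N against EV with 15 of 16 above 0. Of other genes of at least 5000, 56.1% and 66.9% lay above 0. With the curve subtracted the complex V medians were 0.04 and 0.05, and 13 and 11 of its 16 subunits lay above 0. In the catalytic head, ATP5F1A, the alpha subunit, read 25030 on the LATS2 array, 27329 on the LATS2N array and 23634 on the EV array, with log2 ratios of 0.08 and 0.21. ATP5F1B, the beta subunit, read 20560, 20880 and 19344, with 0.09 and 0.11. ATP5F1C, the gamma subunit of the rotor, read 19883, 21418 and 20429, with -0.04 and 0.07, and its other 2 bright probe sets gave -0.04 and -0.06 for LATS2 and 0.06 and 0.05 for LATS2N. ATP5F1D, the delta subunit of the rotor, was the exception in both constructs, at 5840, 5866 and 6454. Its log2 ratios were -0.14 for LATS2 and -0.14 for LATS2N against EV, and a second probe set gave -0.23 in each.

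ATP5MC1, ATP5MC2 and ATP5MC3 encode the same mature c subunit of the proton-driven ring. ATP5MC1 read 6368 on the LATS2 array, 6178 on the LATS2N array and 5566 on the EV array, ATP5MC2 8243, 8725 and 7853, and ATP5MC3 19216, 20891 and 18048. Their log2 ratios against EV ran from 0.07 to 0.19 for LATS2 and from 0.15 to 0.21 for LATS2N. The second probe set of ATP5MC3, about as bright, gave -0.25 for LATS2 and 0.00 for LATS2N. The peripheral stalk subunits with ATP5P symbols all lay above 0 in both comparisons, with medians of 0.08 and 0.15. ATP5PD, the d subunit of that stalk, read 16439, 16572 and 14390, with log2 ratios of 0.19 and 0.20. ATP5PO, which joins the stalk to the catalytic head, read 22126, 23629 and 21076, with log2 ratios of 0.07 and 0.16. ATP5MJ, a small proteolipid of the membrane part, read 14208, 13467 and 12253, with log2 ratios of 0.21 and 0.14. Its second probe set, at 2839, 3042 and 2843, gave -0.002 and 0.10. ATP5ME, a small membrane subunit, read 9319, 10315 and 10017, with -0.10 for LATS2 and 0.04 for LATS2N against EV. ATP5IF1, which inhibits ATP hydrolysis, read 4755, 5208 and 5014, with log2 ratios of -0.08 and 0.05, but its second probe set gave 0.32 and 0.35.

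Where a gene had several probe sets of at least 500, the brightest was set against the next. For LATS2 against EV, 14 of 23 such genes had ratios of the same sign and 9 of opposite sign, with a median difference of 0.10 between the probe sets and a largest of 0.39, in ATP5IF1. For LATS2N against EV, 19 of 25 had the same sign and 6 the opposite, with a median difference of 0.09 and a largest of 0.34. Only 1 probe set was available for 39 members, and for 46 the brightest probe set was of a kind that can read related transcripts. When those kinds were left out, the median was 0.09 for LATS2 and 0.13 for LATS2N against EV.

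**Figure D5:**
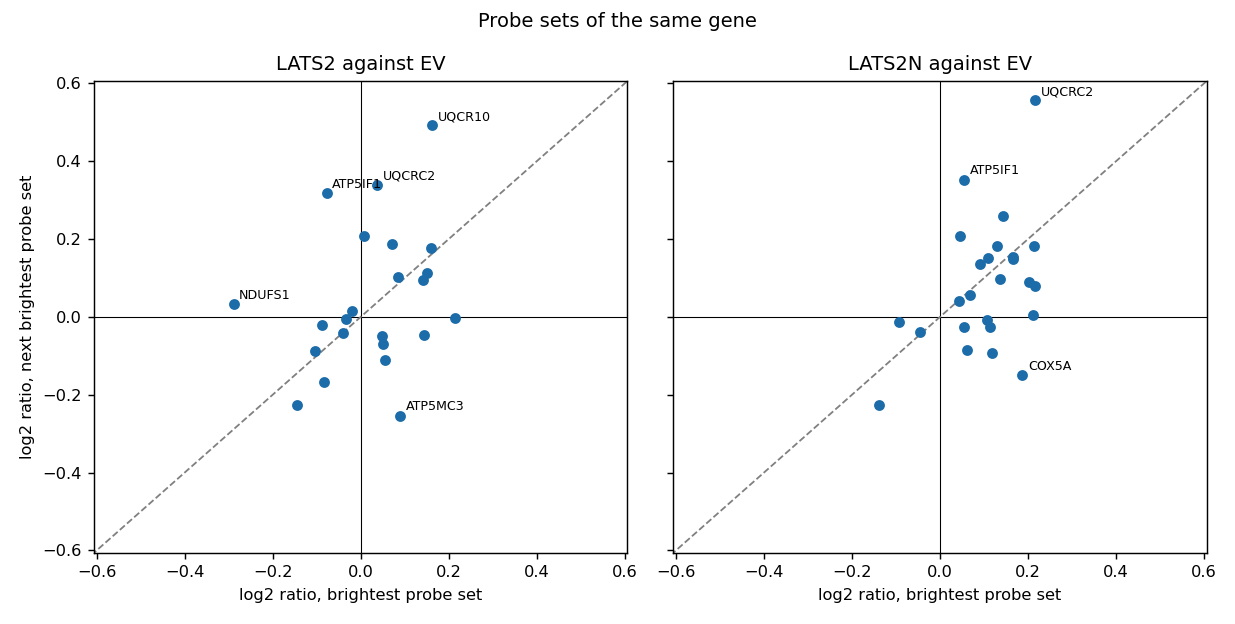
Log2 ratio of the next brightest probe set (y axis) against that of the brightest (x axis) for genes with at least 2 probe sets of at least 500, in LATS2 against EV and LATS2N against EV; each point is a gene and the dashed line marks equality. In LATS2 against EV, 9 of 23 points have opposite signs; in LATS2N against EV, 6 of 25 do.

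The 3 non-coding RNA genes were dim, and which strand their probe sets read was not examined. NDUFV1-DT, a divergent transcript beside NDUFV1, read 95.6 on the LATS2 array, 186.8 on the LATS2N array and 88.2 on the EV array. It was 2.12-fold higher in LATS2N than in EV cells, a log2 ratio of 1.08 where the spread was 0.48, and had a log2 ratio of 0.12 for LATS2 against EV. NDUFV1 itself had log2 ratios of 0.05 for LATS2N and 0.19 for LATS2. NDUFB2-AS1 read 108.8, 111.1 and 91.9, with log2 ratios of 0.24 and 0.27, and NDUFV2-AS1 exceeded the floor only on the LATS2N array, at 36.2, 64.1 and 42.5.

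Other genes of the pathway, from lists outside the symbol rule, were read by their counts and medians. The exception is ATP5IF1, a member that is also in the list of complex V assembly and inhibition. Assembly factors of complex I without NDUFAF symbols had medians over 10 genes of 0.14 in LATS2 and 0.20 in LATS2N cells, as log2 ratios against EV. TIMMDC1, a membrane-arm assembly factor, was the highest of them for LATS2, at 4740 on the LATS2 array, 5011 on the LATS2N array and 3981 on the EV array. For LATS2N the highest was DMAC1, another membrane-arm factor, at 3581, 4435 and 3254 on the same arrays. The 22 measured assembly factors of complex IV had medians of 0.00 and 0.09. Within them COA7, a haem-binding assembly factor, read 1609, 1534 and 2332, with log2 ratios of -0.54 and -0.60, and CMC1 read 2704, 3149 and 2269, with 0.25 and 0.47. Over 4 complex II assembly factors the medians were 0.23 and 0.22, over 6 of complex III 0.16 and -0.04, and over 5 genes of complex V assembly and inhibition 0.07 and 0.18. No gene of these lists reached 2-fold.

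The lists of genes that feed or regulate the chain had medians close to 0 against EV. The 11 tricarboxylic acid cycle genes measured had medians of -0.01 for LATS2 and -0.01 for LATS2N against EV, with 5 of 11 above 0 in each. Cytochrome c and ubiquinone synthesis had medians of 0.01 and 0.00 over 12 genes, and cytochrome c itself (CYCS) read 35228 on the LATS2 array, 36609 on the LATS2N array and 32310 on the EV array. For LATS2 against EV this list ran from -0.53 (COQ7) to 0.52 (COQ9), with 7 genes above 0 and 5 below. COQ2 had -0.47 and COQ8A 0.30. Among 12 transcriptional regulators, the medians were -0.01 and 0.00, with 0 genes at 2-fold. PPARGC1B, a coactivator of mitochondrial genes, read 1386, 1111 and 985, with log2 ratios against EV of 0.49 in LATS2 cells and 0.17 in LATS2N cells. POLRMT, the mitochondrial RNA polymerase, read 1543, 1036 and 1221, with 0.34 and -0.24.

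Targets of hypoxia-inducible factor that bear on mitochondria were the list with 2-fold values. Their median log2 ratio was -0.10 for LATS2 against EV and 0.15 for LATS2N against EV over 8 genes. Of the 8, 2 were at least 2-fold lower in LATS2 cells, beside 0.842% of all genes. The list was chosen with earlier results of these data known, so no conclusion is drawn from this share. PDK1, which restrains entry of pyruvate into the tricarboxylic acid cycle, read 886 on the LATS2 array, 1649 on the LATS2N array and 1315 on the EV array, with a log2 ratio of -0.57 for LATS2 against EV and 0.33 for LATS2N against EV. The 2-fold values came from ANKRD37 and EGLN3, at -1.84 and -1.27 for LATS2 against EV. For LATS2N against EV these 2 genes had 0.28 and 0.10. The rest of the list was closer to 0 for LATS2 against EV. MXI1 and LONP1 lay above 0, at 0.23 and 0.12, and HIGD1A, PDK3 and BNIP3L had -0.12, -0.07 and -0.03. EGLN3 is an oxygen-sensing prolyl hydroxylase. COX4I2, the low-oxygen form described with complex IV, differed between LATS2 and EV cells by less than 1 probe set spread.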

How the data were processed

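Gene expression was measured on 3 arrays, 1 each for LATS2, LATS2N and EV. Per the submitters' processing notes the authors used MAS5, and the deposited values are linear intensities per probe set; its version and settings are not given in the sources used here. Each array's mean without its lowest and highest 2% of values was 500.1, so the arrays share a scaling. Of 41091 probe sets with 1 symbol, 41037 matched the RefSeq table of GRCh38.p14 and took its symbols. Probe sets of several symbols were left out, 15 of them carrying a member's symbol. Log2 ratios were taken of signals floored at 50.5, and a gene was measured where its brighter array reached the floor. Differences were called by size alone (2-fold, or a log2 ratio of 0.32), without a test. The number of arrays limits the precision. Named genes were those of 2-fold difference, the 5 highest and 5 lowest per comparison whose 2 signals exceeded the floor and whose usable probe sets agreed in sign, the 3 brightest, those under the floor, paralogues and subunits of fixed role; any other member named was chosen after its values were seen. The members, lists and rules were chosen with earlier results of these data known. Python 3.11.15, pandas 2.3.3 and statsmodels 0.14.6 were used. Alternatives changed the floor, probe set summary, normalisation and brightness.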

Additional observations from a re-analysis of the deposited data

How the results depend on the processing

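No replicate could be left out. Of 474 medians of members, complexes and lists under the settings, 35 had the opposite sign to the reported one, as had 45 of 990 single-gene ratios. For LATS2 against EV these included complex V assembly (-0.0049 with the 75th percentile floor), complex IV assembly (as low as -0.033 with the lowess curve subtracted), complex I assembly (0.0014 without probe sets ending in _x_at or _s_at), the regulators (0.078 without those probe sets) and cytochrome c with ubiquinone synthesis (-0.038 with the curve). No paired analysis was possible because each group has 1 array. The members' median log2 ratio ran from 0.05 to 0.09 for LATS2 against EV, from 0.08 to 0.15 for LATS2N against EV and from -0.07 to -0.02 for LATS2 against LATS2N. Counts at a log2 ratio of 0.32 were small and moved most. For LATS2 against EV the 2 higher members became 1 with the floor at the 75th percentile or a signal of at least 500, 5 with the median over probe sets, 10 without probe sets ending in _x_at or _s_at, and 0 at 5000. The 0 lower members became 1 with no floor, 2 with the median over probe sets and 3 without those probe sets. For LATS2N against EV the 5 higher members became 2 with the higher floor, at 500 and at 5000, 3 with the median over probe sets or without the non-coding RNA genes, and 11 without those probe sets. The 0 lower became 2 with no floor and 1 without those probe sets. For LATS2 against LATS2N the 5 lower became 2 with the higher floor or at 500, 8 without those probe sets, 3 with the lowess curve subtracted or without the non-coding RNA genes, and 1 at 5000. The 0 higher became 1 with no floor, with the median over probe sets and with the curve, and 5 without those probe sets. At 2-fold, 1 member was lower in each comparison with no floor, and the 1 higher for LATS2N against EV was 0 with the higher floor, at 500, at 5000 and without the non-coding RNA genes. For LATS2N against EV, the complex V median was 0.046 with quantile normalisation and 0.048 with the curve, the complex II median 0.19 at 5000, and the complex I assembly median -0.017 with the median over probe sets. The complex V median for LATS2 against LATS2N was 0.01 with the curve. In the same comparison, without probe sets ending in _x_at or _s_at, the complex I median was 0.019 and the complex II median -0.0005. Among the other lists, for LATS2 against EV complex III assembly gave -0.022 and the tricarboxylic acid cycle 0.13 without those probe sets. For LATS2N against EV, complex II assembly gave 0.10 with the higher floor and at 500, complex V assembly 0.055 with the median over probe sets and -0.061 without those probe sets, and the hypoxia targets 0.26 without those probe sets. For LATS2 against LATS2N, complex II assembly gave -0.027 with the higher floor and at 500, the hypoxia targets -0.30 with the 25th percentile floor and with no floor, complex V assembly 0.10 and the regulators 0.20 without those probe sets. The cause was not tested. Of all genes at least 2-fold apart in LATS2N against EV, 62.5% were higher, and 49.5% with the curve subtracted. Of 606 values of whole lists, counts and complexes, 556 kept within the spread or 1.5-fold of the count, as did 922 of 990 single-gene values. The spread for bright genes, 0.11 for LATS2 against EV, was larger than the members' median there. A median could thus change its sign and still count as kept, so these counts say little about stability. The alternatives at 5000 and without non-coding RNA genes were chosen after seeing the data. Without probe sets ending in _x_at or _s_at, a log2 ratio rested on other probe sets, for COX4I1 one of 143, 106 and 80.5 on the LATS2, LATS2N and EV arrays: COX4I1 gave 0.83, COX5A -0.77 and NDUFS1 0.03 for LATS2 against EV, SDHC -0.12, ATP5MC3 -0.25 and ATP5F1C 0.36.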
